A study of Mus musculus with 30 samples.

Results

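Mouse embryonic stem cells that carry a degron tag on SPT16 were compared with untagged cells at 0 h, before any auxin was given. The comparison covered every gene with a mean normalised count above 0 in the 0 h gene table, which was 18018 of 21859 genes, 17311 of them on autosomes. Its 4 libraries, of 30 in the series, were 2 from untagged cells and 2 from SPT16_AID_V5 cells titled Clone1 and Clone2, so each tagged library came from a separate clone. All were of the E14 line, grown without feeders in LIF with the inhibitors CHIR99021 and PD0325091. The labels place osTIR1, the plant F-box protein that auxin uses to mark a degron for destruction, in the genome of all 4. The tagged cells also had a mini-AID degron and a triple V5 tag at the C-terminus of Supt16. The treatment field gives all 4 libraries 0.1% ethanol, the vehicle of the auxin, and no auxin. Groups were taken from the titles, because the tag field of the second untagged library describes the tagged cells, and the series' treatment protocol gives 24 h of treatment for all samples. Later tables of the same time course, at 3, 6 and 12 h, have by title 2 untagged libraries given auxin, and 2 tagged ones each with vehicle and with auxin.

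FACT is a histone chaperone made of SPT16 and SSRP1. It takes H2A-H2B dimers off the nucleosome ahead of RNA polymerase II and helps to put them back behind it, and in embryonic stem cells it is bound at many active genes and pluripotency enhancers. An auxin-inducible degron lets the protein be destroyed within hours, and the comparison before auxin sets tagged clones against untagged cells while the protein is still there. TT-seq labels RNA with 4-thiouridine, here for 5 min, and sequences the labelled fragments, so that introns are read along with exons.

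The values at 0 h are the authors' own, a mean over libraries, a log2 change and its standard error, a p-value and an adjusted p for each gene. No value per library was used at 0 h, since the table holds none, and depth per library is unknown there. The sources do not say which groups the tables compare or which is the numerator, so changes are called positive or negative as signed. The log2 changes had been shrunken toward 0, since 14791 genes lay within 0.01 of 0 and 118 beyond 0.1 in the authors' deposited table. Genes are therefore also described by a signed z, the p-value of a gene turned into a normal deviate with the sign of its change. Counts per library come from 8 later libraries of tagged lines 10E and 11D, with totals of 6547992 to 16554314, taken after auxin (IAA, 500 nM) or ethanol (EtOH) and washout. The labels do not say whether Clone1 and Clone2 are 10E and 11D. Nor do they say that replicates were separate cultures, so the p-values of these counts reflect variation between libraries that may be technical.

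Markers of stem cells had far higher counts than those of other cell types. The authors' deposited table gave 6 stem cell genes mean counts per kb of gene length of 485.5 to 2731, with a median of 1438. In the same authors' deposited table the medians of 5 other marker sets, for primitive endoderm, trophoblast, neural, mesoderm and fibroblast or feeder cells, ran from 0.0634 to 8.15. Their highest single values were 34.2 for Sox1, 33.0 for Eomes and 27.8 for Nes. These 3 lay above the median of all genes tested, 22.7, so some markers of other cell types were not near 0. Col3a1, Lum, Mesp1 and Tubb3, which mark fibroblasts, mesoderm and neurons, were listed at 0. An exact 0 can come from how a gene was counted: Sox2, with a mean count of 3487 in the authors' deposited table for 0 h, was at 0 in all 8 washout libraries.

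Supt16, the tagged gene (ENSMUSG00000035726, mm10 chr14:52160414-52197416, minus strand), did not pass the test at 0 h. Its mean count was 10248 in the authors' deposited table, with a signed z of 0.89 (p = 0.374) and an adjusted p of 1. Reads over the whole gene do not measure the tag itself or the protein. Ssrp1, the partner subunit, had a signed z of -1.01 and likewise an adjusted p of 1 from the authors' deposited table. Of 16 genes within 500 kb of Supt16 whose mean count reached 10, Supt16 included, none was called and none had an unadjusted p under 0.05 in the authors' deposited table. Their signed z ran from -1.94 at Arhgef40 to 1.24 at AY358078, with 11 positive and 5 negative. In the washout libraries Supt16 had 56.9 and 76.4 CPM (counts scaled to the size of the library) in 10E EtOH, 85.7 and 89.7 in 11D EtOH, 116.2 and 131.5 in 10E IAA, and 108.6 and 91.6 in 11D IAA. The 4 IAA libraries all lay above the 4 EtOH libraries. Between IAA and EtOH the log2 difference was 0.54 ± 0.16 (SE, edgeR adjusted p = 0.0345), and 20.8% of all genes were called in that comparison. The difference between the lines in EtOH, 10E less 11D, was -0.39 on the log2 scale and did not pass edgeR's quasi-likelihood test (adjusted p = 0.916).

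Few genes separated the tagged from the untagged libraries. Of 14909 genes with an adjusted p, 56 passed 0.05 according to the authors' deposited table, which is 0.376%, and 53 of them were negative. On autosomes the called genes were 46 of 14369, with 3 positive (Peg10, Lgals3 and Chrna4) and 43 negative. At an unadjusted p under 0.05 the authors' deposited table holds 401 negative and 186 positive genes among the 14909. All 46 autosomal genes were annotated as protein coding, as were 99.9% of all autosomal genes tested. They lay on 16 of the 19 autosomes, with 8 on chromosome 2 and 5 on chromosome 7. Among them, Grhl2 and Ncald on chromosome 15, with 2.6 kb between them, were the only neighbours whose starts lay within 1 Mb. Chromosome 14, which holds Supt16, had 4 called genes of 527 tested (0.759%), the highest share of an autosome, followed by chromosome 13 with 0.694% and chromosome 2 with 0.691%. Measured from the start of Supt16, these were Gm29776 at 2.53 Mb, Lgals3 at 4.79 Mb, Cacna1d at 22.1 Mb and Gm281 at 38.3 Mb. Lgals3 was positive and the other 3 were negative, and the part of their position in their change was not tested. In bulk libraries like these, fewer cells that express a gene and less RNA per cell cannot be told apart.

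**Figure D1:**
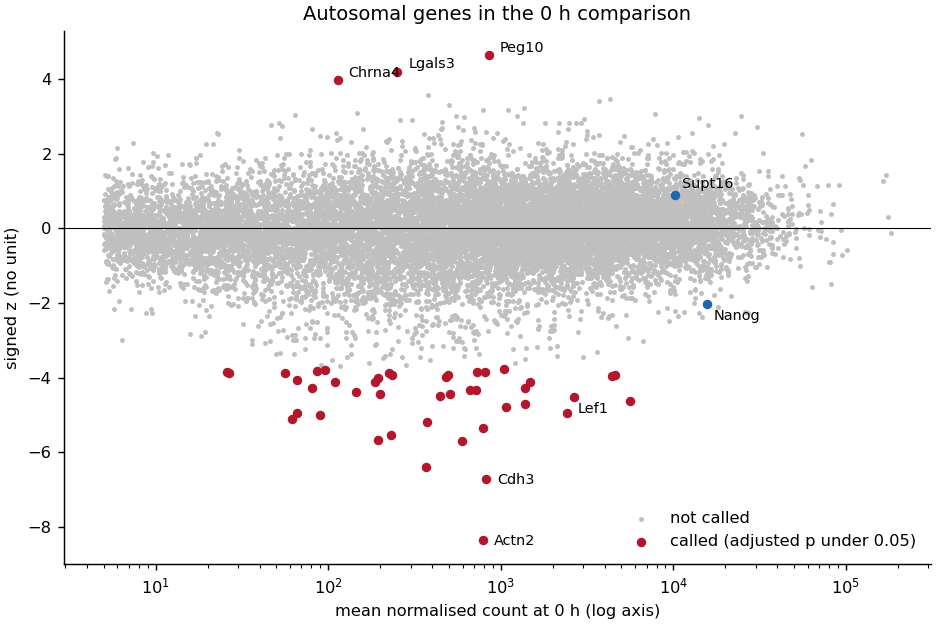
The autosomal genes tested at 0 h, from the authors' deposited table. The horizontal axis is the mean normalised count (log axis), the vertical axis the signed z, and each point a gene. Red points are the 46 called genes, of which 3 lie above and 43 below 0, and blue points are Supt16 (0.89) and Nanog (-2.03).

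The called genes were long and weakly to moderately transcribed. Their median gene length was 75.8 kb against 26.3 kb for all autosomal genes tested, and 17 of 46 (37.0%) were longer than 100 kb against 15.5% of all. Exons took up a median of 7.16% of the gene, against 17.0%. Median mean counts were 408.2 for the called genes and 837.6 for all in the authors' deposited table, and the called genes ranged from 26 for Gm29776 to 5618 for Smoc1. Of the 43 negative genes, 35 had a shrunken log2 change beyond 0.01 in the authors' deposited table, with a median of -1.35 and a range of -2.83 (Serpina3m) to -0.757 (Camk2b). The other 8 (Galnt18, Snhg11, Npas2, Cspg4b, Htr5a, Mlph, Gm29776 and Chst11) had been shrunken to within 0.01 of 0 although they passed the test, so no size can be given for them.

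Actn2, Cdh3 and Tshz2 had the smallest adjusted p-values among the negative autosomal genes. Actn2 encodes the actin crosslinker alpha-actinin of the muscle Z-disc (ENSMUSG00000052374, mm10 chr13:12269426-12340760, minus strand). Its log2 change was -2.10 ± 0.26 (SE) with an adjusted p of 5.73e-13 from the authors' deposited table, the smallest adjusted p of an autosomal gene. It was the only one of 16 tested genes of a list of actin and muscle genes to be called, and 12 of these 16 had a positive sign. Cdh3 encodes P-cadherin, a calcium-dependent adhesion protein (ENSMUSG00000061048, mm10 chr8:106510891-106557297, plus strand), and changed by -1.63 ± 0.26 (adjusted p = 7.41e-08) from the authors' deposited table. Grhl2, a transcription factor of epithelial identity, changed by -1.70 ± 0.35 (adjusted p = 4.37e-05) from the same authors' deposited table. Both belong to a list of cadherins and epithelial adhesion genes, of which 2 of 24 were called and 9 of 24 had a positive sign, with a median signed z of -0.31. Over all genes tested, 50.8% had a positive sign and the median signed z was 0.01. Cntnap4, Sdk2 and Adgrv1, which encode cell-surface proteins of neurons and sensory cells, were also negative, as was Capg, which caps actin filaments.

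Several other negative genes are known from signalling, and they are described side by side here without being a tested group. Lef1 encodes a transcription factor that acts with beta-catenin in the Wnt pathway, the pathway that CHIR99021 switches on in these cultures (ENSMUSG00000027985, mm10 chr3:131110471-131224356, plus strand). It changed by -1.22 ± 0.29 (adjusted p = 0.000676) from the authors' deposited table at a mean count of 2425. No other Wnt gene was called: the list had 1 of 26, with 12 of 26 positive and a median signed z of -0.08. Rasgrp1, an activator of Ras that diacylglycerol switches on, changed by -1.05 ± 0.26 (adjusted p = 0.00183) from the authors' deposited table. The adaptor Grap2, known from T-cell receptor signalling, changed by -1.88 ± 0.37 (adjusted p = 2.13e-05) from the authors' deposited table, and the tyrosine kinase Tec by -0.99 ± 0.29 (adjusted p = 0.00923). Smoc1, a secreted calcium-binding matrix protein, had the highest mean count of the called genes and changed by -1.34 ± 0.34 (adjusted p = 0.00276) from the authors' deposited table. Nrg4, a ligand of the receptor ERBB4, and Camk2b, a subunit of a calcium-dependent kinase, were negative too.

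The other negative genes came from many cell types and pathways. Tshz2, a zinc-finger homeobox factor, changed by -1.97 ± 0.33 (adjusted p = 3.91e-07) from the authors' deposited table, and Cyp2b23, a cytochrome P450, by -1.65 ± 0.32 (adjusted p = 1.86e-05). Cyp2b23 has close copies in the genome, as have Nlrp9b and Serpina3m, and their values are uncertain for that reason. Hormad2, a protein of the meiotic chromosome axis, changed by -1.23 ± 0.33 (adjusted p = 0.00391) from the authors' deposited table, and Mlxipl, a glucose-sensing transcription factor, by -1.17 ± 0.31 (adjusted p = 0.00439). Ccdc73 changed by -1.52 ± 0.33 (adjusted p = 0.000229) from the same authors' deposited table. Galnt18 (adjusted p = 0.000108), Snhg11 (adjusted p = 0.00148) and Npas2 (adjusted p = 0.00539) passed the test with no size in the authors' deposited table. Galnt18 encodes an enzyme of mucin-type glycosylation, Snhg11 is named as a small nucleolar RNA host gene, and Npas2 encodes a partner of BMAL1 in the circadian clock.

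The remaining genes on the negative side were, with adjusted p-values from the authors' deposited table running from 0.000351 to 0.0342, Serpina3m, Cntnap4, Fam3b, Gpat2, Plet1, Nrg4, Cspg4b, Brsk2, Ccdc172, Catsperg1, Gm281, Fstl5, Cacna1d, Ncald, Camk2b, Gad1, Htr5a, Atxn1, Mlph, Capg, Psd4 and Gm29776. Some have well-known roles in neurons: Gad1 makes the transmitter GABA, Htr5a is a serotonin receptor, Cacna1d a calcium channel pore and Brsk2 a kinase of neuronal polarity. Just inside the threshold stood Chst11 (adjusted p = 0.0355), Nlrp9b (0.0355), Pkd2l1 (0.0388), Sdk2 (0.0401) and Adgrv1 (0.0426) from the authors' deposited table. Just outside it stood Dcdc2a (adjusted p = 0.0579), Magohb (0.0607), Dock2 (0.0639), Scn2b (0.0735) and Tet3 (0.0735) from the authors' deposited table.

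Of the 3 positive genes, Peg10 had the smallest adjusted p. Peg10 is an imprinted gene derived from a retrotransposon and expressed from the paternal copy (ENSMUSG00000092035, mm10 chr6:4747306-4760517, plus strand). It changed by 1.28 ± 0.33 (adjusted p = 0.00272) from the authors' deposited table at a mean count of 848.8. Sgce, the imprinted gene beside it, had 0.92 with an unadjusted p of 0.000971 and an adjusted p of 0.17 from the authors' deposited table. Of 28 tested imprinted genes Peg10 was the only one called, and 19 of 28 had a positive sign. Lgals3, which encodes the sugar-binding protein galectin-3 (ENSMUSG00000050335, mm10 chr14:47367751-47386160, plus strand), changed by 1.12 ± 0.33 (adjusted p = 0.0119) from the authors' deposited table. It lies on the chromosome of Supt16, outside the 500 kb window. Chrna4, a subunit of nicotinic acetylcholine receptors, changed by 2.06 ± 0.68 (adjusted p = 0.0268) from the authors' deposited table at a mean count of 113.3.

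Off the autosomes, all called genes were negative. They were Scml2, Nxf3, Xlr3a, 1700013H16Rik, Usp26 and Pnma5 on X, Zfy1, Kdm5d and Uba1y on Y, and mt-Nd6 in the mitochondrial genome. Scml2, a Polycomb-group protein of the germline, had -2.63 ± 0.31 and the smallest adjusted p of all genes, 9.13e-15, from the authors' deposited table. Of 34 tested Polycomb-group genes it was the only one called. Zfy1 changed by -2.54 ± 0.41 (adjusted p = 7.41e-08) and Kdm5d by -3.08 ± 0.87 (adjusted p = 0.00789) from the authors' deposited table. Of 8 tested Y-linked genes 3 were called, and 2 had a positive sign. Zfy1, Xlr3a and Uba1y have close copies, and their values are uncertain.

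The promoters of 3 of the called genes are shown to let their sequences be read beside their changes: Actn2 with the smallest adjusted p of an autosomal gene, Lef1 as the called Wnt gene, and Lgals3 as a positive gene with an entry in the table used. Each is the 250 bases before a RefSeq transcription start in GRCm38.p6, 5′ to 3′ on the gene's strand, with CG pairs in capitals. Actn2 is chr13:12340733-12340982 on the minus strand, Lef1 chr3:131110073-131110322 on the plus strand, and Lgals3 chr14:47373610-47373859 on the plus strand, 6109 bases from the start of the gene as annotated in GENCODE.
Actn2: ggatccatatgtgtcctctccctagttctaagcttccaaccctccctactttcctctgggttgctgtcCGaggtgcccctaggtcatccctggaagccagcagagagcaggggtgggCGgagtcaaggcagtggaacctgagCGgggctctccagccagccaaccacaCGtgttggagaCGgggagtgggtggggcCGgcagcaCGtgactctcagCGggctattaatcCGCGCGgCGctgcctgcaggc
Lef1: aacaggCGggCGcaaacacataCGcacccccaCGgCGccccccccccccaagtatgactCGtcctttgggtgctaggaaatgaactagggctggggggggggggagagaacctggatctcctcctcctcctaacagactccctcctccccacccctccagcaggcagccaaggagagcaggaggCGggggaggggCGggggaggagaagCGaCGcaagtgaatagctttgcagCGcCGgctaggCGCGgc
Lgals3: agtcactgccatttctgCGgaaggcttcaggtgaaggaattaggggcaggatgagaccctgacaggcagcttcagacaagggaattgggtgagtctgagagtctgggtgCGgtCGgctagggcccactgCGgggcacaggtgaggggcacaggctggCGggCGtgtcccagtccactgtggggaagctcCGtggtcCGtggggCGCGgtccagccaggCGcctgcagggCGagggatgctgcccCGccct
These hold 12, 14 and 13 CG pairs. CG reads the same on both strands, so 1 count covers both. RefSeq windows were matched for 34 of the 46 called genes and for 11236 of all autosomal genes tested. The median number of CG pairs in the 250 bases was 13 for the called genes and 15 for all. Windows with 2 CG pairs or fewer made up 6 of 34 (17.6%) of the called genes and 6.96% of all, so the 3 promoters shown are near the middle of both groups.

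Pluripotency genes did not pass the test at 0 h. By the authors' deposited table the signed z was -2.03 for Nanog (unadjusted p = 0.0427), -1.88 for Pou5f1, -1.50 for Sall4 and -0.54 for Sox2, with adjusted p of 1 for each. All 4 core factors had a negative sign, while 21 of 28 genes of the wider naive network had a positive one, with a median signed z of 0.84. The leading genes of that network were Tdgf1, a co-receptor of Nodal, with 0.69 (unadjusted p = 0.00055, adjusted p = 0.117), and Tet1, a 5-methylcytosine oxidase, with an unadjusted p of 0.0118, from the authors' deposited table. Of 17 tested formative and primed genes, Lef1 was the only one called, and 7 of 17 were positive.

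Some lists leaned to the positive side without a single called gene. All 7 tested targets of the aryl hydrocarbon receptor, the sensor of planar aromatic ligands, had a positive sign, with a median signed z of 1.86. They were led by Nqo1 with a change of 0.87 (unadjusted p = 0.00135, adjusted p = 0.208) and Cyp1a1 (unadjusted p = 0.00477, adjusted p = 0.423) from the authors' deposited table. Heat shock chaperones were positive in 12 of 13, with a median signed z of 1.18, led by Hsp90ab1 at 0.49 (adjusted p = 0.306) and Hsp90aa1 at 0.45 (adjusted p = 0.339) from the authors' deposited table. The 2-cell-like list, named for a rare state in stem cell cultures, was positive in 11 of 12 with a median signed z of 1.03, led by Zscan4b (adjusted p = 0.948) and Zscan4d (adjusted p = 1) from the authors' deposited table. The Zscan4 genes are near-identical copies and are not separate measurements. Germline genes were positive in 7 of 18, led by Smc1b at -0.88 (adjusted p = 0.197) and Tdrd12 at -0.48 (adjusted p = 0.341) from the authors' deposited table, with none called. None of 25 histone chaperones and elongation factors had an unadjusted p under 0.05, and 13 of 25 were positive. Immediate early genes (12 of 20 positive), p53 targets (15 of 23) and interferon-stimulated genes (7 of 12) held no called gene either.

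Some markers of other cell types reached a low unadjusted p, at low counts and without a call. Of 16 such markers with an adjusted p, 5 (31.2%) had an unadjusted p under 0.05, against 3.94% of all genes. By the authors' deposited table, an unadjusted p under 0.05 was reached by Nes and Sox1 of the neural markers (signed z of -2.31 and 2.18), Cdx2 and Eomes of the trophoblast markers (-2.98 and 2.89) and Gata4 of the primitive endoderm markers (2.65), and none was called. The neural and the trophoblast pairs had opposite signs. In the wider lists of tested genes, 3 of 6 neural, 2 of 9 trophoblast and 1 of 11 primitive endoderm markers had an unadjusted p under 0.05. Of 8 mesoderm and 4 fibroblast and feeder markers, 0 did. The part of these markers in the called genes was not tested.

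The genes called at 0 h were then followed in the later tables, which share no library with the 0 h table by title but compare cells of the same kinds. Of all genes with an adjusted p, 0.577% were called at 3 h, 3.1% at 6 h and 20.7% at 12 h in the authors' deposited tables. Of the 46 autosomal genes, 1 of the 30 with an adjusted p was called at 3 h (3.33%), 1 of 42 at 6 h (2.38%) and 6 of 46 at 12 h (13%), all with the sign they had at 0 h. At 6 and 12 h these shares lay below those of all genes. Cdh3 was called at 3 h with -1.36 (adjusted p = 0.0408) and at 12 h with -0.95 (adjusted p = 0.00653) from the authors' deposited tables. Gad1 was called at 6 h with -0.99 (adjusted p = 0.0114) from the authors' deposited table. The other 5 at 12 h were Rasgrp1 (-1.39, adjusted p = 0.00309), Nrg4 (-1.95, adjusted p = 0.000902), Camk2b (-1.17, adjusted p = 0.00126), Nlrp9b (-1.11, adjusted p = 0.0147) and Lgals3 (1.37, adjusted p = 0.0149) from the authors' deposited table.

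**Figure D2:**
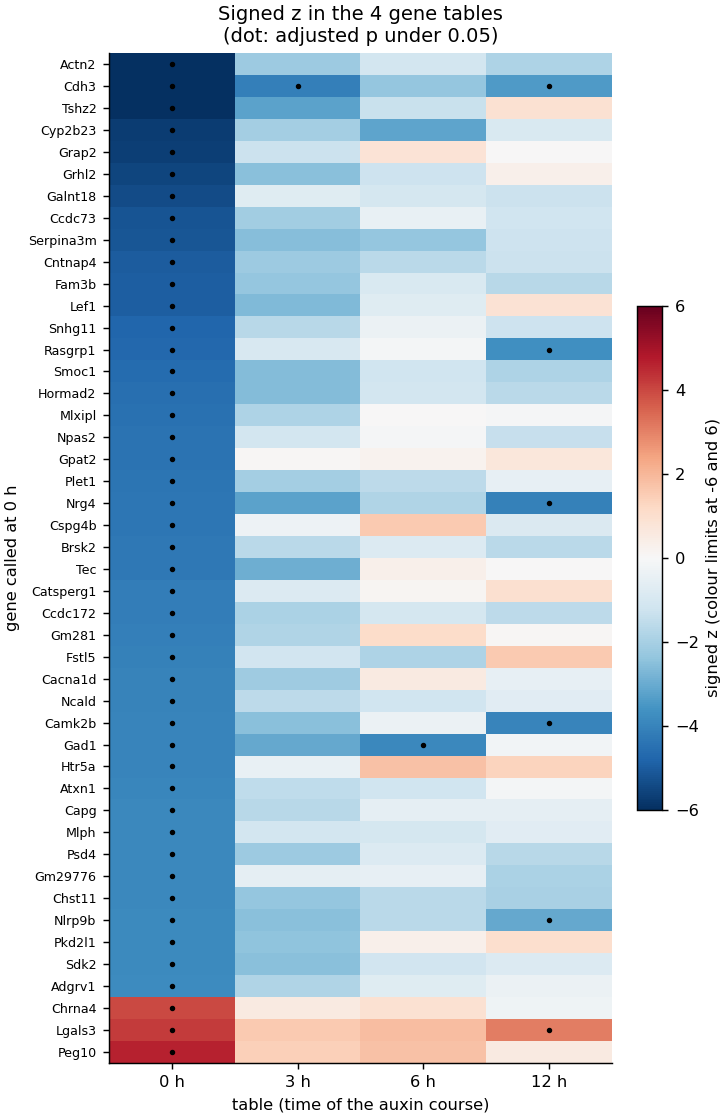
Signed z of the 46 autosomal genes called at 0 h, one per line, in the authors' deposited gene tables of 0, 3, 6 and 12 h (columns). Blue is negative, red positive, colours stop at -6 and 6, and a dot marks an adjusted p under 0.05; the 3 h column is blue for nearly all genes that were negative at 0 h, and 1, 1 and 6 dots stand at 3, 6 and 12 h.

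Signs carried over more often than calls. Of the 43 negative genes, 28 had an adjusted p at 3 h, and 27 of these (96.4%) were negative there, against 52.7% of all autosomal genes. At 6 h the count was 29 of 39 (74.4%, against 51.3%) and at 12 h 32 of 43 (74.4%, against 50.6%). Gad1 had -0.63 at 3 h (adjusted p = 0.113), Nrg4 -0.87 (adjusted p = 0.0941) and Tec -0.55 (adjusted p = 0.134) from the authors' deposited table. Lef1 went from -0.40 at 3 h (adjusted p = 0.184) to 0.22 at 12 h (adjusted p = 0.574) from the authors' deposited tables, and Tshz2 from -0.12 (adjusted p = 0.0952) to 0.24 (adjusted p = 0.545). Negative signs at 0 h thus went with negative signs at 3 h, and rarely with a call. The sources do not say which of the 3 kinds of libraries each later table compares, so the contrasts at 0 and 3 h may not be the same. Whether the changes differ between the times was not tested, since the tables give no value per library.

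The mean counts of the same genes also differed between the tables. By title the untagged libraries are 2 of 4 at 0 h and 2 of 6 at the later times. In the authors' deposited tables the log2 ratio of a gene's mean count to that at 0 h, less the median over all genes, had a median of -0.601 over the 43 negative genes at 3 h, -0.788 at 6 h and -0.27 at 12 h. At 3 h 42 of 43 lay below the median of all genes, at 6 h 39 and at 12 h 37. For scale, the middle 50% of all genes ran from -0.246 to 0.235 at 3 h, from -0.248 to 0.337 at 6 h and from -0.318 to 0.475 at 12 h in the authors' deposited tables. Peg10 had 1.39, 1.66 and 1.74 at 3, 6 and 12 h on this scale, Lgals3 1.02, 1.21 and 1.37, and Chrna4 -0.317, -0.0583 and 0.31, in the authors' deposited tables. Most negative genes thus had lower means at 3 and 6 h, while their median at 12 h lay within the middle 50% of all genes, and Peg10 and Lgals3 had higher means at all 3 times. Treatment also differs between the tables and depth is unknown. The genes were also chosen from the 0 h table, whose mean is the divisor of the ratio. The part of each of these in the ratios was not tested.

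The washout counts show how these genes vary between libraries of tagged cells. Between the lines 10E and 11D in EtOH, edgeR called 0 of 16517 genes (0.0%), DESeq2 also called 0, and 405 genes (2.45%) had an unadjusted p under 0.05 in edgeR. Of 45 genes called at 0 h that could be tested (Mlph was too low), 1 had an unadjusted p under 0.05 and none was called by either tool. Their log2 differences between the lines ran from -1.11 (Hormad2) to 1.17 (Psd4). The edgeR fit had no term for the number of a library, so differences by number entered its error. The lack of calls therefore does not show that the lines are alike. Actn2 had 5.02 and 5.99 CPM in 10E EtOH, 6.96 and 8.89 in 11D EtOH, 4.69 and 6.19 in 10E IAA, and 8.75 and 6.35 in 11D IAA. The treatments overlapped throughout for Actn2, and no library stood apart.

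More genes were called between the libraries numbered 1 and 2 than between the lines, but the models differed. The fit for the lines had no term for the number. For Cdh3 the edgeR SE was 0.76 between lines and 0.17 between numbers. In a comparison added after the data were seen, the 2 EtOH libraries numbered 2 were set against the 2 numbered 1, with line in the model. By edgeR 5683 of 16800 genes were called, and 3046 (18.1%) were higher in the libraries numbered 2. Of the 45 genes called at 0 h, 31 were called, 28 of them higher (62.2%) and 3 lower. DESeq2 called 2748 genes in both directions together, and 20 of the 45 as higher. The totals of this fit and of the alternatives that follow count both directions. They are therefore no like background for the genes called as higher. Without the line term, edgeR called 1647 genes over the same 4 libraries, and 19 of the 45 as higher. With 1 library left out as well, which leaves an arm of 1 library assumed to vary like the other arm, edgeR called 583 genes and 12 of the 45 as higher without 10E number 1, and 644 and 10 without 11D number 1. The counts were 3205 and 22 without 10E number 2, and 2043 and 19 without 11D number 2. The median log2 difference was 0.80 over the 45 genes and -0.01 over all autosomal genes of the 0 h table. Both libraries numbered 2 lay above both numbered 1 for 32 of 45 genes (71.1%), against 26.2% of all autosomal genes.

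Single genes show this split. Cdh3 had 8.73 and 12.6 CPM in the EtOH libraries numbered 1 of 10E and 11D, and 46.6 and 43.0 in those numbered 2, with a log2 difference of 2.06 ± 0.17 (SE, edgeR adjusted p = 1.1e-30). Hormad2 had 11.5 and 14.4 CPM in those numbered 1 and 38.3 and 94.1 in those numbered 2. Its log2 difference was 2.25 ± 0.16 (edgeR adjusted p = 8.89e-41). The groups by number did not overlap for either gene, and the lines lay close together for Cdh3. Ccdc73 had 3.48 and 2.32 CPM against 8.96 and 16.7, a log2 difference of 2.13 ± 0.25 (edgeR adjusted p = 2.09e-15). Smoc1 had 77.1 and 74.9 CPM against 118.2 and 207.8 (edgeR log2 difference of 1.04 ± 0.14, adjusted p = 2.25e-11). Lef1 went the other way, with 39.4 and 33.8 CPM in the libraries numbered 1 and 10.6 and 13.6 in those numbered 2, a log2 difference of -1.61 ± 0.17 (edgeR adjusted p = 1.04e-18). Lgals3 (-0.85 ± 0.24, edgeR adjusted p = 0.00221) and Gad1 (-1.06 ± 0.20, edgeR adjusted p = 1.52e-06) were the other 2 genes called lower. Actn2, the leading gene at 0 h, was not called (0.30 ± 0.24, edgeR adjusted p = 0.351).

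**Figure D3:**
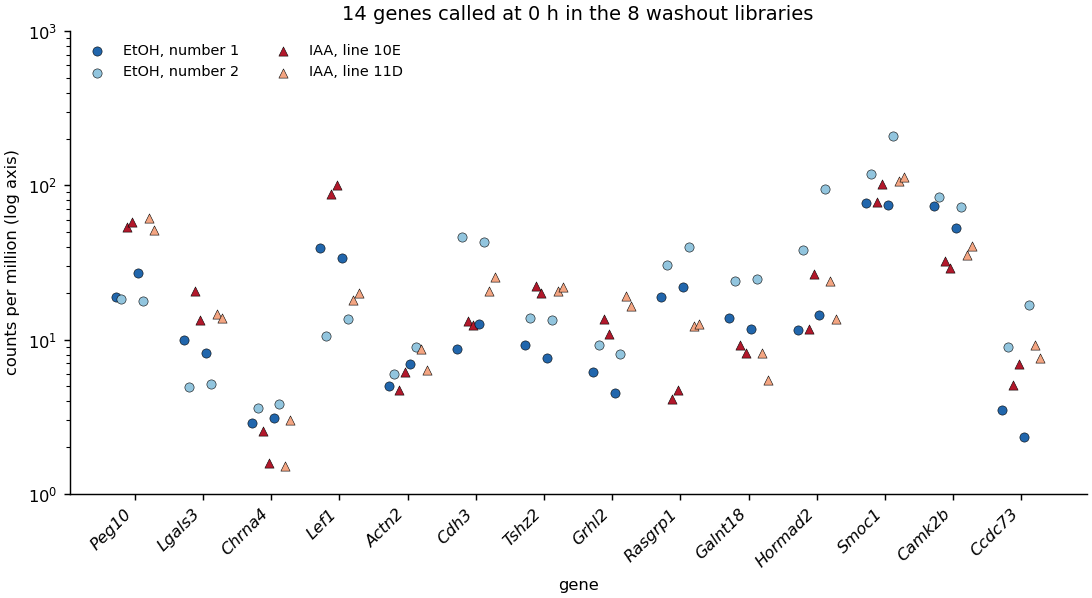
Scaled counts (CPM, log axis) of 14 genes called at 0 h in the 8 washout libraries. Circles are EtOH libraries, dark for number 1 and light for number 2; triangles are IAA libraries, dark for line 10E and light for 11D. Cdh3, Hormad2 and Ccdc73 have light circles well above dark ones, Lef1 the reverse, and Peg10 has all triangles above all circles.

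The difference between the numbers was also looked at by level of expression. Below a mean count of 100 at 0 h the median was 1.37 over 9 of the called genes, and 0.48 over all, so genes of low count in general were higher in the libraries numbered 2. For mean counts at 0 h of 100 to 1000 the median was 0.80 over 26 of the called genes and 0.08 over all, and for 1000 and over 0.74 over 10 and -0.15 over all. Among genes with an exonic share under 10% it was 0.79 over 30 and 0.05 over all. A correlation was taken across the 10969 genes with mean counts of at least 100 at 0 h, which are not independent replicates. Between the signed z at 0 h and the difference between the numbers, Pearson r was -0.205 and Spearman rho -0.17. The labels do not say what the numbers stand for. In the IAA libraries they gave no such split: the differences of number 2 less number 1 had a correlation across genes of 0.68 between 10E and 11D EtOH, and of -0.16 to 0.08 between the other pairs of groups.

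Chromosome 8, which holds Cdh3 and Cntnap4, moved with some of these libraries. It took 7.6% and 7.37% of autosomal counts (6 loci above 1% of a library left out) in the EtOH libraries numbered 2 of 10E and 11D, and 5.6% and 5.37% in those numbered 1. The 10E IAA libraries had 5.31% and 5.15%, and the 11D IAA libraries 7.34% and 7.57%. The libraries thus fell at 2 levels, with 4 at each. On this share the EtOH libraries numbered 1 lay with the 10E IAA libraries, and those numbered 2 with the 11D IAA libraries. Whether the EtOH libraries carry the right line names and numbers was not tested. Comparisons of the lines, in EtOH or across treatments, take these names as given. The median log2 difference between the EtOH numbers was 0.41 over genes of chromosome 8, against -0.12 to 0.06 over the other autosomes. Cdh3, at 2.06, and Cntnap4, at 1.64 ± 0.29 (edgeR adjusted p = 4.79e-07), lay above that chromosome's median, and the part of the chromosome's level in their values was not tested. At 0 h chromosome 8 had the highest share of positive genes of the autosomes, 57.9%, in the authors' deposited table.

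Some of the genes also differed between IAA and EtOH after washout. With line in the model, edgeR called 3441 of 16517 genes (20.8%) between IAA and EtOH, and 12 of the 45 genes called at 0 h (26.7%), 6 higher and 6 lower in IAA. Leaving out 1 IAA library gave 2104 (10E number 1), 2090 (10E number 2), 1417 (11D number 1) and 1980 (11D number 2) genes, and 7, 7, 7 and 10 of the 45. Peg10 had 19, 18.4, 27.2 and 17.9 CPM in EtOH (20.6 ± 4.40, SD, n = 4) and 53.7, 57.9, 61.1 and 51.3 in IAA (56.0 ± 4.34, SD, n = 4). All IAA libraries lay above all EtOH libraries for Peg10, by 1.45 ± 0.17 on the log2 scale (SE, edgeR adjusted p = 0.000444). Lgals3 had 4.89 to 9.89 CPM in EtOH and 13.4 to 20.7 in IAA, again without overlap (1.16 ± 0.27, edgeR adjusted p = 0.0127). Both genes were positive at 0 h and higher after IAA and washout, while Chrna4 overlapped between treatments (-0.65 ± 0.35, edgeR adjusted p = 0.198).

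Among the genes negative at 0 h both directions were found. Tshz2 rose from 11 ± 3.05 CPM in EtOH to 21.2 ± 0.926 in IAA (SD, n = 4 each, edgeR log2 difference of 0.94 ± 0.22, adjusted p = 0.0124). Grhl2 rose by 1.07 ± 0.24 (edgeR adjusted p = 0.0106), and Serpina3m and Tec rose too (edgeR adjusted p = 0.0132 and 0.0448). Rasgrp1 fell from 27.9 ± 9.46 CPM to 8.43 ± 4.64 (SD, n = 4 each), a log2 difference of -1.90 ± 0.24 (edgeR adjusted p = 0.00065). Camk2b fell from 70.8 ± 12.9 CPM to 34.3 ± 4.78 (SD, n = 4 each), a log2 difference of -1.05 ± 0.16 (edgeR adjusted p = 0.00191). Galnt18, Snhg11, Capg and Chst11 fell as well, with edgeR log2 differences of -1.28, -1.26, -0.85 and -0.80. Rasgrp1 and Camk2b were thus negative at 0 h, negative with a call at 12 h, and lower after IAA and washout. Lef1 had 88.5 and 100.5 CPM in 10E IAA but 18 and 20.0 in 11D IAA, and Lef1 was not called between treatments (edgeR adjusted p = 0.204). The test of whether the treatment difference of Lef1 depended on the line did not pass either (2.24 ± 0.84 on the log2 scale, edgeR adjusted p = 0.309). It had no term for the number, so the split of Lef1 by number in EtOH entered its error. The line-by-line values of Atxn1 ran likewise, with 112.9 and 142.5 CPM in 10E IAA and 50.0 and 35.2 in 11D IAA, and that test did not pass for Atxn1 (1.82 ± 0.34, edgeR adjusted p = 0.248).

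Beyond single genes, the sign of the change at 0 h was uneven along the genome. Chromosome 11 had 450 positive genes of 1185 tested (38.0%), with a median signed z of -0.25, in the authors' deposited table. The other 18 autosomes had 47.2% to 57.9% and medians of -0.07 to 0.12 in the authors' deposited table. In the later authors' deposited tables chromosome 11 had 46.2% at 3 h, 56.5% at 6 h and 55.0% at 12 h. In 13 windows of 10 Mb the share ran from 28.6% to 48.9%, and the highest of these lay within the range of the other autosomes. In each of 5 bins of exonic share, of gene length and of mean count, chromosome 11 had a lower share than the other autosomes. By mean count, for example, its bins had 32.1% to 44.7% and those of the others 44.5% to 59.1%. Only 3 genes of chromosome 11 were called (Hormad2, Camk2b and Sdk2), and 3.80% had an unadjusted p under 0.05, within the 1.37% to 5.92% of the other autosomes. The chromosome was picked after its value was seen and no test was made.

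**Figure D4:**
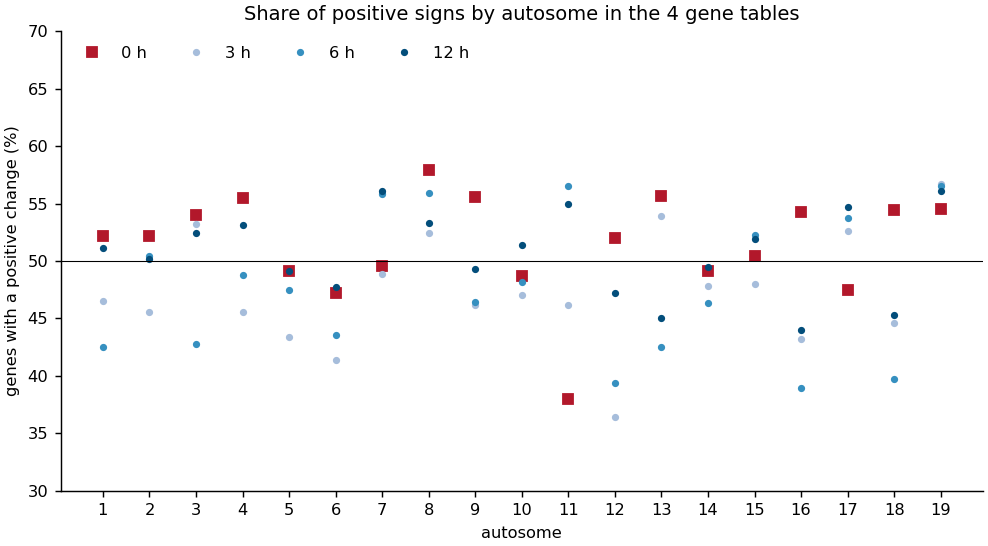
Percentage of tested genes with a positive change (vertical axis, from 30 to 70%) on each autosome in the authors' deposited gene tables; squares are 0 h and dots the later times. At 0 h chromosome 11 stands at 38.0%, below the 47.2% to 57.9% of the others, while at 6 and 12 h it stands at 56.5% and 55.0%.

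A stretch of chromosome 6 was low in the same way. Along the genes in order, the median signed z of 25 neighbours fell to -1.52 there, and off chromosome 6 its lowest value was -1.06. Where it stayed below -1, from mm10 chr6:81923669-86379328, 54 genes had a median signed z of -1.44, and 6 of them (11.1%) were positive, against 50.2% of the other 656 genes of chromosome 6. Of the 54, 13 had an unadjusted p under 0.05 by the authors' deposited table, all negative (24.1%, against 3.63% on the other autosomes). None was called. The smallest adjusted p were 0.0735 for Tet3, a 5-methylcytosine oxidase, and 0.137 for Dguok, a mitochondrial nucleoside kinase, in the authors' deposited table. The others included Pcgf1, Dctn1, Zfp638 and Exoc6b, with unadjusted p of 0.0204 to 0.0266 in the authors' deposited table. The genes of the stretch had, in the washout counts, a median log2 difference of 0.17 between lines, -0.17 between EtOH numbers and -0.22 between IAA and EtOH.

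**Figure D5:**
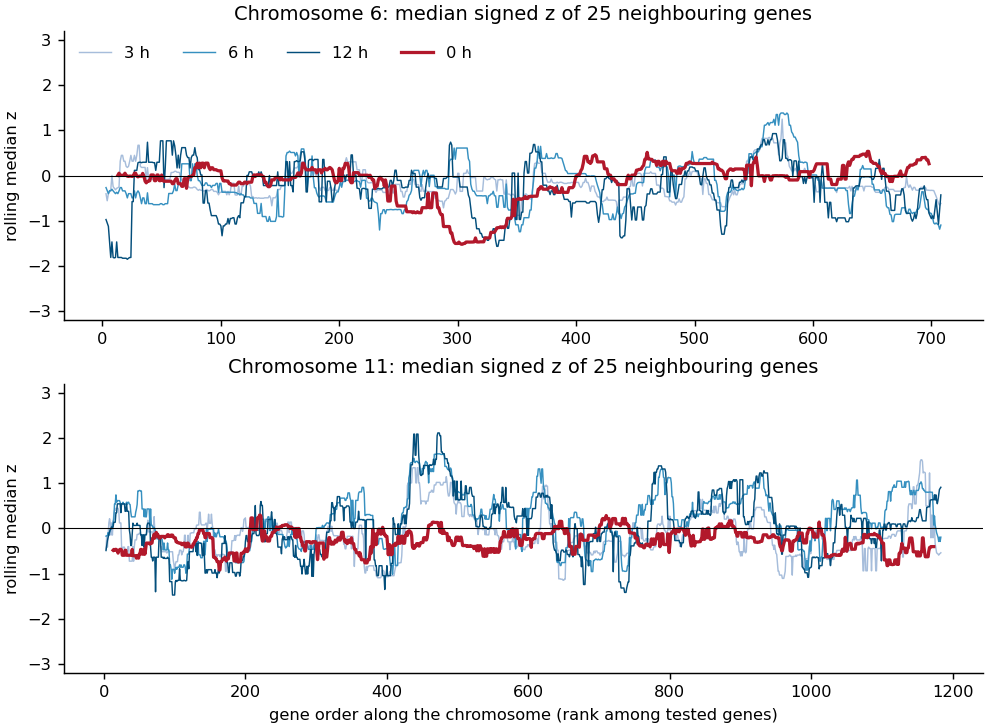
Median signed z of 25 neighbouring genes (vertical axis) along the order of tested genes (horizontal axis) on chromosomes 6 and 11, from the authors' deposited gene tables; the thick line is 0 h and the thin lines the later times. The 0 h line dips to -1.52 on chromosome 6 and stays mostly below 0 on chromosome 11.

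In the later authors' deposited tables the 54 genes had median signed z of -0.09 at 3 h, -0.25 at 6 h and -0.83 at 12 h. Dips of that size are found in those tables elsewhere, as their lowest rolling medians over all autosomes were -1.31, -1.65 and -2.62. The stretch was chosen by its low value, so these figures describe it without a test.

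Few transcripts outside genes were called at 0 h, and most of these regions had low counts. Of 12182 PROMPTs, which are transcripts upstream of promoters, 1 was called in the authors' deposited table (0.00821%), that of mt-Nd5 with -1.85 ± 0.42 (adjusted p = 0.00415). It belongs to the circular mitochondrial genome, as do mt-Tw, mt-Tt and mt-Ti, which followed with negative signs and adjusted p of 0.909 and 0.993. Sh2d6 was the other leading PROMPT (adjusted p = 0.307) from the authors' deposited table. Of 11964 eRNAs, transcripts of enhancers, none was called (0.0%) from the authors' deposited table, which has the columns of DESeq2, and 84 had an unadjusted p under 0.05. Of 32143 DHSs, DNase-hypersensitive sites, none was called (0.0%), and 151 had an unadjusted p under 0.05 in the authors' deposited table. An edgeR count cannot be given for these classes, as no counts per library were used at 0 h. Median mean counts in the authors' deposited tables were 1.35 for PROMPTs, 6.33 for eRNAs and 1.19 for DHSs. An unadjusted p under 0.05 was reached by 0.287%, 0.702% and 0.47% of them, against 3.94% of genes. The few calls therefore do not show that the groups were alike.

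The leading eRNAs at 0 h were positive. ENH4418 had 1.03 ± 0.32 (adjusted p = 0.939), ENH14877 0.92 ± 0.35 and ENH14729 0.90 ± 0.34 (adjusted p = 1 for both) from the authors' deposited table. All 3 were called at 3 h, with 1.76, 1.58 and 1.48 (adjusted p = 0.00149, 0.00232 and 0.00653), and none at 6 or 12 h, in the authors' deposited tables. Of all 1440 eRNAs with an adjusted p at 3 h, 78 were called, and all 78 were positive. At 0 h none of these was called, but the adjustment there covered 11964 eRNAs. The contrasts at 0 and 3 h may also not be the same. Of the next 2, ENH550 was not called at 3 h and ENH9485 had no adjusted p there. ENH550 was called as negative at 6 h (-0.82, adjusted p = 0.0422) and 12 h (-2.13, adjusted p = 0.00525) in the authors' deposited tables. The leading DHSs were negative. DHS163073 had -1.77 ± 0.43 (adjusted p = 0.0511), just outside the threshold, in the authors' deposited table, and DHS163074 and DHS163072, next to it by number, had -1.60 and -1.69 (adjusted p = 0.203 and 0.991). DHS433 (-2.23) and DHS86566 (-1.73) completed the leading 5 in the authors' deposited table. The tables give no coordinates, so the place of these elements is not stated here.

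The PROMPTs of the called genes gave little to compare. Of the 46 genes 13 had a PROMPT with a p-value, 3 of them with mean counts that reached 10, and none had an unadjusted p under 0.05 in the authors' deposited table. Negative signs were found for 6 of 13 (46.2%), against 53.1% of all PROMPTs in the authors' deposited table. The mean counts of these PROMPTs reached at most 12.1.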

How the data were processed

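TT-seq values at 0, 3, 6 and 12 h come from tables the authors deposited, 1 per feature class and time, with a mean normalised count, a log2 fold change and its standard error, and for each feature a p-value, raw and adjusted; per the file headers the columns are those of DESeq2. The sources used here state neither the direction of the contrast nor its design. The washout values are counts of read pairs over whole genes, reverse stranded, made with featureCounts 2.0.1, per the file headers of the authors' deposited table, which holds 55291 genes in 8 libraries with totals of 6547992 to 16554314. STAR, deepTools and mm10 are named in the submitters' processing notes. Same-strand gene overlaps make some of these counts uncertain.

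At 0 h a feature was called at an adjusted p under 0.05. Coordinates and lengths are from the count table and GENCODE, matched for 99.8% of genes, and promoter sequences from RefSeq, GRCm38.p6. Washout counts were tested with edgeR 4.0.16 in R 4.3.3 (quasi-likelihood, TMM, filterByExpr, Benjamini-Hochberg, two-sided), with DESeq2 1.42.0 as an alternative. Tested on simulated data with 200 genes changed 4-fold between IAA and EtOH among 15973, edgeR recovered 200. The simulated counts held no difference between lines or numbers, and the changed genes were drawn from those above the median level. The recovery therefore does not cover genes of low count or libraries that split by number. The standard error of an edgeR log2 difference is the difference over the square root of its F statistic. Figures used matplotlib 3.10.9.

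The members and gene lists were chosen with earlier results of these data known. Genes named with values were all positive autosomal calls, the 15 negative ones with the smallest adjusted p and a mean count of at least 100, called members of a list, the 5 genes on either side of the threshold, both FACT genes, the 4 core factors, the 2 leading genes of a list and the 5 leading noncoding features per class. Others named were chosen after their values were seen. The comparison of libraries numbered 2 with those numbered 1, and the regions of chromosomes 6, 8 and 11, were also chosen after seeing the data.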

Additional observations from a re-analysis of the deposited data

Results flagged for a closer look

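Among the genes named with values, 46 groups of 4 washout libraries were checked for a library far from the others, and chance marks about 1 group in 20. For Peg10 in EtOH, the first 11D library stood apart at 27.2 CPM, against 17.9, 18.4 and 19 in the others, with a gap of 0.877 of the whole range. For Lgals3 in IAA, the first 10E library had 20.7 CPM, against 13.4, 13.9 and 14.6, a gap of 0.841 of the range. The limit for 4 libraries is 0.829. Both genes had all IAA libraries above all EtOH libraries with these libraries included.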

How the results depend on the processing

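At an adjusted p of 0.01 in place of 0.05, 32 genes were called at 0 h, 25 of them autosomal. With Benjamini-Hochberg adjustment over every gene with a p-value, 54 were called and 1 of the 46 autosomal genes was lost, while adjustment over autosomal genes or over mean counts of at least 10 lost none of the 46. Adjusted over features with mean counts of at least 10, PROMPTs had 2 calls and DHSs 3, and at a threshold of 0.1 DHSs had 1. For IAA against EtOH, leaving out 1 library gave 1417 to 3852 genes in place of 3441. No filter gave 1810 higher and 2547 lower, against 1725 and 1716 with the filter. The comparison of EtOH libraries numbered 2 and 1 gave 2748 genes by DESeq2, 1647 without the line term, and 583 to 3205 with 1 library left out as well. The cause of these shifts was not tested.

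The replicate numbers do not pair the washout libraries across treatments. With the number as a replicate block, edgeR called 0 genes between lines and 3920 between IAA and EtOH, 12 of the 45 as before. The block was shared by EtOH and IAA libraries, although the numbers gave no such split in IAA. The 0 h tables hold no libraries, so no block could be fitted there. On chromosome 11 the share of positive genes was 37.7% at mean counts of at least 100, and in the chromosome 6 stretch 6.98%, both chosen after seeing the data. With 2 libraries a group at 0 h and depth unknown, changes in genes of low count may not have been detectable.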
